A study of Arabidopsis thaliana with 12 samples.

Results

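The contrast described here is the difference of the ozone (O3) response between the Arabidopsis accessions Cvi-0 (Cvi) and Shahdara (Sha). For each gene it is the log2 change from clean air (CA) to O3 in Cvi minus the same change in Sha, so a positive value means that the transcript moved further up, or less far down, in Cvi. RNA sequencing covered 12 libraries, 3 replicates for each of the 4 combinations of accession and treatment, and the labels give no other allele or agent. Exposure was to 350 nL L-1 O3 or to CA for 2 h, the plants were 3 weeks old, and each library was made from 4 pooled whole rosettes, so a library averages over plants and cell types. Both accessions are natural inbred lines, which differ throughout their genomes, and reads were assigned to transcripts annotated on a further accession, so sequence differences from that reference can alter the count of a gene. All 28549 genes with a count, of 34212 loci in the table, entered the test. The gene lists described below were chosen with earlier results of these data known, and 4 genes because the study names them. A gene is called where its difference exceeded a 1.2-fold change at a false discovery rate (FDR) of at most 0.05 in edgeR. Levels are given in CPM, the count of a gene relative to a total of 1000000 counts, after scaling for library size and composition, with replicates in the order 1, 2 and 3. CPM values are not divided by transcript length, so they are compared between samples of the same gene only. The labels call the replicates biological and state no batch.

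Ozone enters the leaf through the stomata and breaks down in the cell wall space to reactive oxygen species. There it sets off a chain known also from immunity: respiratory burst oxidases (RBOH) add further superoxide, calcium channels open, mitogen-activated protein (MAP) kinases are activated, and WRKY, NAC, ERF and ZAT transcription factors are switched on. Salicylic acid, jasmonate, ethylene and abscisic acid then shape defence metabolism, cell death and stomatal closure. On a log2 scale, a larger response can come from a lower level in CA, from a higher level in O3, or from both. The 4 group levels are therefore given beside most differences. Where levels are left out, the difference alone does not show which case applies.

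Total estimated counts ran from 10794686 to 27895667 in the 6 Sha libraries and from 21699862 to 33571953 in the 6 Cvi libraries, so low transcripts were counted less precisely in the shallower Sha libraries. Replicate 2 of Sha in O3 was often the lowest of its group. Among the 1309 genes with a stronger rise in Cvi that averaged 5 CPM or more, it was lowest in 64.7%, against 48.9% of all 15313 genes at that level. Among the stronger falls at that level it was lowest in 23%. Replicate 2 of Cvi in O3 was lowest of its group in 33.5% of the stronger rises, 50.6% of the stronger falls and 56.9% of the weaker rises, against 39.7% of all genes. The classes were formed from the same libraries, so these shares may follow in part from the sorting. Without both Sha libraries numbered 2, an alternative chosen after seeing the data, 1862 genes had a larger and 1096 a smaller response in Cvi. The leaf marker list (RBCS1A, RCA, LHCB1.1 and CA1) summed to between 5469 and 45516 CPM in every library, and the 2 seed markers to at most 0.218 CPM. The flower markers AP3, PI and AG summed to between 2.72 and 8.58 CPM in Sha and to at most 0.557 CPM in Cvi. Of the 3 root markers tested, PYK10 carried the sum (9.77 to 56.8 CPM in Sha in O3, 60.4 to 69.1 CPM in Cvi in O3), SHV2 (COBL9) did not exceed 0.182 CPM, and MYB36 lay at 0 in each Sha library in O3. Their part in the results below was not tested.

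The response differed between the accessions in 2548 genes, 8.93% of those tested. It was larger in Cvi in 1806 genes (6.33%) and smaller in 742 (2.6%), so larger responses were 70.88% of the called genes. This split depended on the scaling of the libraries. Scaled by total counts alone, 1431 genes were larger and 1217 smaller (54.04% larger), with a shift of the median difference over all genes from 0.03 to -0.14. Size factors of the DESeq2 type in edgeR gave 1977 larger and 590 smaller (77.02%), and DESeq2 itself gave 1528 and 323 (82.55%). The median size of a called difference was 1.76 on the log2 scale among larger and 1.31 among smaller responses.

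The called genes were sorted by what the transcript did in each accession. A stronger rise, called higher in O3 in Cvi and not called lower in Sha, was found in 1658 genes. Of these, 1130 were called higher in Sha too and 528 were called in Cvi alone. Over all genes tested, O3 was called to raise 17.9% and lower 16.6% in Sha (34.5% together), and to raise 24.3% and lower 23.2% in Cvi (47.5% together). On the log2 scale the median response of the stronger rises was 1.47 in Sha, against 3.53 in Cvi. A stronger fall in Cvi, called lower in Cvi and not called higher in Sha, was found in 530 genes, with medians of -0.36 in Sha and -1.78 in Cvi. Of these, 195 were called lower in Sha too and 335 were called in Cvi alone. Smaller classes were a weaker rise in Cvi (173 genes, medians 1.84 and 0.12) and a weaker fall (92 genes, medians -1.68 and 0.10). In 133 of the weaker rises and 75 of the weaker falls, O3 was called to change the gene in Sha alone. The accessions were called in opposite directions in 64 genes, 39 of them up in Cvi and 25 down in Cvi. A further 31 genes were called for the difference and in neither accession. The sorting used the same libraries as the difference, so these medians describe the classes and test nothing. In each of the 12 fits that left out 1 library, 1089 of the stronger rises, 238 of the stronger falls, 87 of the weaker rises and 42 of the weaker falls were called again in the same direction. Single libraries moved 2 of the smaller classes most: there were 353 stronger falls without replicate 2 of Cvi in CA and 338 without replicate 2 of Cvi in O3, and 14 genes in opposite directions and down in Cvi without replicate 3 of Cvi in O3.

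**Figure D1:**
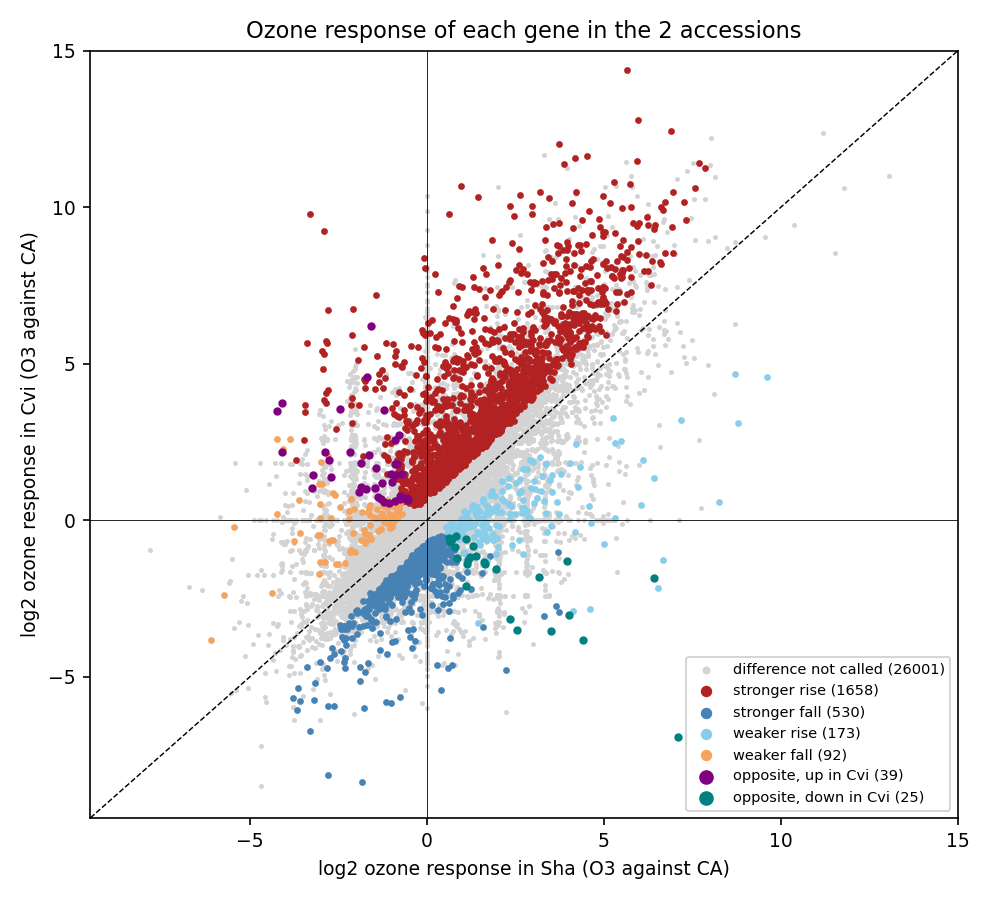
Each point is 1 of 28549 genes, placed by its log2 O3 response in Sha (horizontal axis) and in Cvi (vertical axis), with the dashed line where both are equal. Coloured points are genes called for the difference, 1658 of them with a stronger rise in Cvi and 530 with a stronger fall, and the 64 called in opposite directions lie at the upper left and the lower right.

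The accessions were most often called different in O3 and not in CA. A missing call in CA does not show equal levels. Of the 1658 genes with a stronger rise, 178 were at the floor of 3 counts per library in Cvi in CA, where a difference is hard to call. JAZ8 had no call in CA (edgeR FDR 0.0924) although its CA libraries did not overlap. Of the stronger rises, 1022 (61.6%) were called different between the accessions in O3 alone, where Cvi was higher. For comparison, Cvi was called above Sha in 18.5% and below it in 13.9% of all genes tested in O3 (32.4% together), and in 8.84% and 9.28% in CA (18.1% together). In 271 genes (16.3%) the accessions were called different in CA alone, where Cvi was lower. In a further 184 (11.1%) Cvi was called lower in CA and higher in O3. Of the 530 stronger falls, 330 (62.3%) were called lower in Cvi in O3 alone and 100 (18.9%) higher in Cvi in CA alone. Of the 173 weaker rises, 78 (45.1%) were called lower in Cvi in O3 alone and 37 (21.4%) higher in Cvi in CA alone. Accession and difference contrasts share libraries, so these shares are a description.

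**Figure D2:**
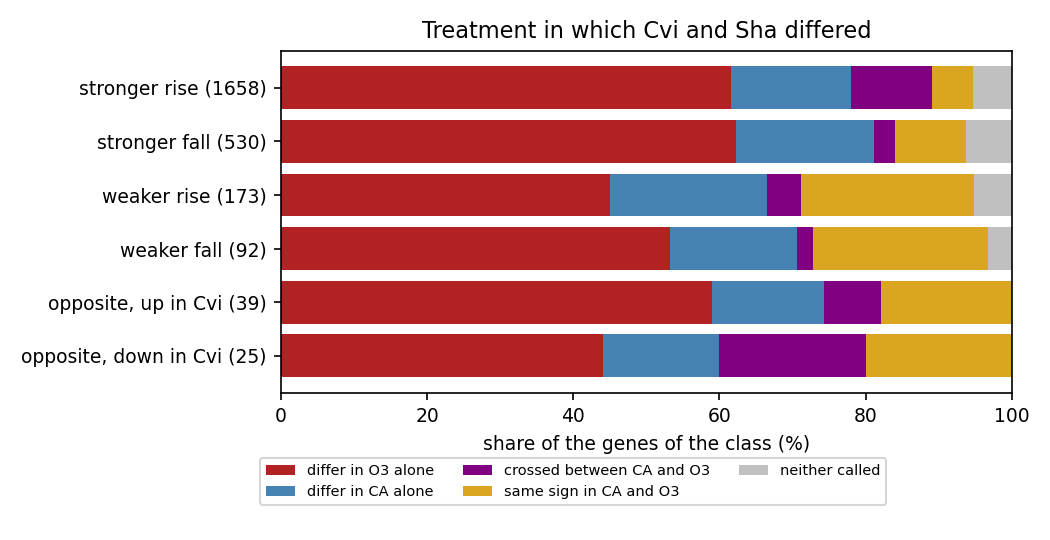
Bars give, for each response class (number of genes in brackets), the share of genes in which Cvi and Sha were called different in O3 alone, in CA alone, in opposite directions in CA and O3, in the same direction in both, or in neither. The accessions were called different in O3 alone in 61.6% of the stronger rises and 45.1% of the weaker rises.

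Promoters were compared next, as the 300 bases from 250 before to 50 after each annotated start in the RefSeq annotation of TAIR10.1 (25112 protein-coding genes). Motifs were searched on both strands and a match is a description of letters, not a binding site. The core CGCGT, bound by calmodulin-binding CAMTA factors, occurred in 19.7% of the 1616 promoters with a stronger rise and in 9.06% of all promoters. Genes called higher in both accessions without a called difference held it in 12.3% of 3090 promoters, and the stronger rises that were called higher in both in 20.6% of 1116. It occurred in 6.06% of the weaker rises and 5.83% of the stronger falls. The W-box, the element of WRKY factors (TTGACC or TTGACT), was found in 45% of the stronger rises, 42.4% of the weaker rises and 44.3% of the rises without a called difference, against 32.5% of all promoters and 24.1% of the stronger falls. The heat shock element GAANNTTC was in 18% of the stronger rises, 16.4% of the weaker rises, 13.9% of the rises without a called difference and 11.6% of all promoters. For the TGA core TGACG the shares were 26.6% and 23.4%, for the G-box CACGTG 11.2% and 8.06%, for the evening element AAAATATC 8.29% and 6.95%, and for the GCC-box GCCGCC 3.34% and 2.55%. The rises without a called difference held these last 4 motifs in 26.2%, 9.22%, 7.48% and 2.94%, and the weaker rises in 31.5%, 6.67%, 9.09% and 3.03%. A match of any of these motifs may overlap a match of another.

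Printed here are the 250 bases before the start of 6 genes with a stronger rise in Cvi whose values follow, chosen because they hold several matches: the CAMTA core in ZAT7, NAC061 and GLR2.5, the W-box in OXI1 and PROPEP3, and the heat shock element in HSP17.4. Capitals mark the matches of that motif, and the run ACGCGT holds the CAMTA core on both strands.
ZAT7 (chr3:16926884-16927133, minus strand): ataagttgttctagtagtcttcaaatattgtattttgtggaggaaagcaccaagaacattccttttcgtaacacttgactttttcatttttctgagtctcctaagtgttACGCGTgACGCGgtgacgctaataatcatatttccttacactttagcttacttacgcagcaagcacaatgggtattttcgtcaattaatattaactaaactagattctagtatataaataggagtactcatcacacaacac
NAC061 (chr3:16024520-16024769, minus strand): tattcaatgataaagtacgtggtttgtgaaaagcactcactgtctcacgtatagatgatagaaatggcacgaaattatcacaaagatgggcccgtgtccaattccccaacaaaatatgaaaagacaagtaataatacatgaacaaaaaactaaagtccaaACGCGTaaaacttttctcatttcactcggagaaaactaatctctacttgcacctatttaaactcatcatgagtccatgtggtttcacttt
GLR2.5 (chr5:3574818-3575067, minus strand): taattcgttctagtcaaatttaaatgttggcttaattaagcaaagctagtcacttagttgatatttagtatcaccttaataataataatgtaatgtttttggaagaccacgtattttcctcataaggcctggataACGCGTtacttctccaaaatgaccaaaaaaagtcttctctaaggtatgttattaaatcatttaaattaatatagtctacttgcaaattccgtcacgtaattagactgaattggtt
OXI1 (chr3:9195084-9195333, plus strand): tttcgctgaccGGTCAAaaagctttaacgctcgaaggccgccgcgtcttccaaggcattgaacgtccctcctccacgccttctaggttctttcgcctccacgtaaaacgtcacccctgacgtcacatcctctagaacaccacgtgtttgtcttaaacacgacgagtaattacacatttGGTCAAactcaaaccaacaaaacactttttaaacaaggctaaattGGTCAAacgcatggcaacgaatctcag
PROPEP3 (chr5:25939312-25939561, plus strand): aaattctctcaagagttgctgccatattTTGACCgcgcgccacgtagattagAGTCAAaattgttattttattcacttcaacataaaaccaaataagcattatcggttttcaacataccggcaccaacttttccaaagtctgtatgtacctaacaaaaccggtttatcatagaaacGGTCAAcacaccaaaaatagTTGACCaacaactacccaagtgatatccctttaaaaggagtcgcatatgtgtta
HSP17.4 (chr3:16984868-16985117, minus strand): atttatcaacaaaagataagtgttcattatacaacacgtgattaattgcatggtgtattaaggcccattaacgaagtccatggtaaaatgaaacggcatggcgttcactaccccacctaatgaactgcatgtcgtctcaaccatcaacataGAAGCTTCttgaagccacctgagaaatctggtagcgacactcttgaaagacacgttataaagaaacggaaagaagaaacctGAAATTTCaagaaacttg

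**Figure D3:**
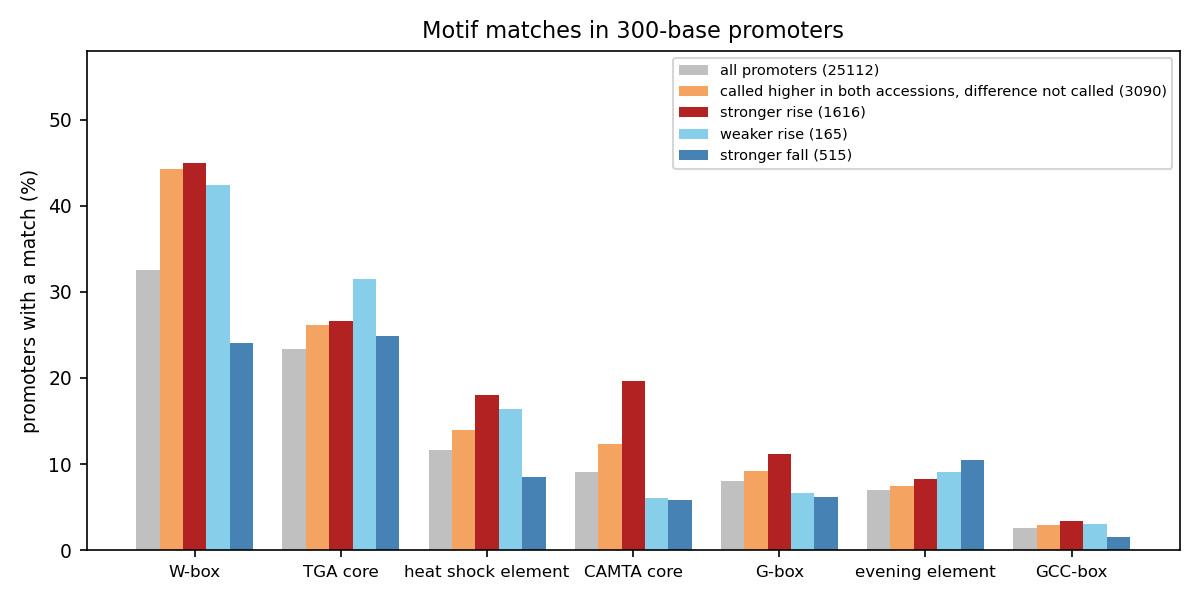
Bars give the share of 300-base promoters with at least 1 match of each motif, for all promoters and for 4 sets of genes (number of promoters in brackets). The CAMTA core shows the widest gap between the stronger rises (19.7%) and the rises without a called difference (12.3%), while the W-box shares of these sets are 45% and 44.3%.

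The enzymes and channels that act first in the O3 response were examined first. RBOHD and RBOHF, which make superoxide in the cell wall space during stress, both rose further in Cvi. RBOHD (AT5G47910, chromosome 5, 19397041 to 19402061) stood at 78.6, 85.9 and 58.5 CPM in Sha in CA, 337, 244 and 348 CPM in Sha in O3, 63.7, 71.3 and 70.1 CPM in Cvi in CA and 822, 764 and 800.0 CPM in Cvi in O3. Levels in CA overlapped between the accessions and the O3 levels did not, and the difference was 1.48 (SE 0.282, FDR 7.08e-05). RBOHF (AT1G64060) stood at 16.1, 15.8 and 15.1 CPM in Sha in CA, 35.5, 47.5 and 34.9 CPM in Sha in O3, 30.9, 34.6 and 30.6 CPM in Cvi in CA and 327, 379.5 and 268 CPM in Cvi in O3. Cvi was higher in both treatments here, by more in O3, with a difference of 2.01 (SE 0.266, FDR 5.76e-10). Of 9 RBOH genes tested, 3 (33.3%) had a larger and 0 a smaller response in Cvi. Over all genes tested these shares were 6.33% and 2.6%, the background for each list below.

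Among calcium sensors, calcium-dependent kinases, pumps and channels, 24 of 95 genes (25.3%) had a larger and 4 (4.21%) a smaller response in Cvi. Without replicate 3 of Sha in CA, 2 were smaller. The widest differences among those that averaged 5 CPM or more were in glutamate receptor-like channels. GLR2.5 (AT5G11210) stood at 2.63, 0.799 and 1.92 CPM in Sha in CA, 20.6, 9.11 and 24.2 CPM in Sha in O3, 0.126, 0.232 and 0.261 CPM in Cvi in CA and 94.1, 113 and 98.4 CPM in Cvi in O3. Cvi was thus below Sha in CA and above it in O3 without overlap, and the difference was 5.61 (SE 0.627, FDR 2.00e-16). GLR2.5 overlaps other annotated genes on both strands, so its count is uncertain. GLR1.2 (ATGLR1.2) rose from 0.282, 0.0773 and 0.218 CPM to 45.4, 33.1 and 40.6 CPM in Cvi and from 4.62, 2.69 and 4.05 CPM to 29.6, 12.5 and 51.2 CPM in Sha. Here the O3 levels overlapped and the CA levels did not, with a difference of 4.58 (SE 0.683, FDR 3.13e-09). With total counts as scaling, 16 genes of the list were larger and 7 smaller, and with a limit of 1.2 on the log2 scale 10 and 0.

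Kinases and receptors that relay these signals were examined next. OXI1 (AGC2-1, AT3G25250), a kinase that acts downstream of hydrogen peroxide and whose promoter is printed above, stood at 1.36, 0.581 and 0.927 CPM in Sha in CA, 41, 17.1 and 53.1 CPM in Sha in O3, 0.220, 0.116 and 0.0871 CPM in Cvi in CA and 271, 298 and 255 CPM in Cvi in O3. All Cvi libraries lay below those of Sha in CA and above them in O3, and the difference was 5.52 (SE 0.679, FDR 2.63e-14). MPK11, a MAP kinase, reached 668, 706 and 629 CPM in Cvi in O3 and 214, 117 and 192 CPM in Sha in O3, from 1.79 to 3.63 CPM and 3.63 to 4.26 CPM in CA (difference 2.43, SE 0.389, FDR 3.83e-07). In the MAP kinase list, 4 of 15 genes were larger and 1 was smaller. That 1 was MKK9, a MAP kinase kinase, with a difference of -1.35.

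Of 21 pattern recognition receptors and their ligands, 11 had a larger and 0 a smaller response, and the median difference of the list was 0.91 against 0.03 over all genes tested. They included EFR, LYK5, BAK1, PEPR1 and PEPR2, the last 2 being receptors of the Pep danger peptides. PROPEP3, the precursor of 1 such peptide, stood at 0.453, 0.654 and 0.309 CPM in Sha in CA, 26.7, 9.59 and 17.3 CPM in Sha in O3, 0.126, 0.116 and 0.131 CPM in Cvi in CA and 85.9, 70 and 71.7 CPM in Cvi in O3. The O3 levels did not overlap, and the difference was 3.89 (SE 0.704, FDR 1.52e-06). PROPEP2 was at the floor of 3 counts per library in both accessions in CA. It reached 21.9, 21.6 and 23.4 CPM in Cvi in O3, at least 196-fold higher than that floor, and 1.44, 0.663 and 2.07 CPM in Sha in O3, at least 7.05-fold higher. RLP43, a receptor-like protein, had the widest difference of the stronger rises taken by the naming rule (a symbol, a mean of 5 CPM or more, no group at the floor, a call in each of the 12 fits). Its levels were 2.27, 3.71 and 2.95 CPM in Sha in CA, 7.64, 14.7 and 4.87 CPM in Sha in O3, 0.0627, 0.0387 and 0.174 CPM in Cvi in CA and 16.4, 38 and 21.1 CPM in Cvi in O3, so the accessions differed by more in CA than in O3 (difference 6.47, SE 0.802, FDR 3.50e-15). RLP43 lay around the floor in Cvi in CA (0.114 CPM on average there), so the size of this difference is uncertain. A gene with 91.2% identity over 55% of the RLP43 transcript (AT3G11010) could also have exchanged reads with it.

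The cysteine-rich receptor-like kinases (CRK), a family known to respond to O3, were divided: 8 of 42 had a larger and 5 a smaller response in Cvi. CRK13 rose from 1.79, 1.39 and 0.697 CPM to 1358, 1238 and 1474 CPM in Cvi and from 7.98, 9.09 and 7.59 CPM to 800.4, 414 and 1223 CPM in Sha. The levels in O3 did not overlap but were not called different, while Cvi was lower in CA (difference 3.39, SE 0.508, FDR 2.49e-08). CRK8 went the other way. It rose from 5.62, 9.09 and 6.80 CPM to 76.4, 134 and 65.8 CPM in Sha, and stood at 0.847, 1.00 and 0.741 CPM in CA and 1.89, 0.941 and 1.08 CPM in O3 in Cvi, a difference of -3.10 (SE 0.476, FDR 5.99e-08). Cvi was below Sha in both treatments without overlap. CRK6, CRK7, CRK20 and CRK29 also had smaller responses, with differences between -2.62 and -1.71. Of 10 NLR immune receptors, 0 had a larger and 1 a smaller response, SNC1 (difference -0.84, SE 0.240, FDR 0.0256). In CA, SNC1 stood at 13.5, 14.8 and 10.3 CPM in Sha and 40.3, 48.3 and 41.4 CPM in Cvi. In O3 it stood at 30, 30.3 and 33.3 CPM in Sha and 52.8, 65.4 and 59.2 CPM in Cvi. Cvi was thus above Sha in both treatments without overlap. SNC1 lost its call in 5 of the 12 fits without 1 library.

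Transcription factor families held called members in both directions. In the WRKY family, 12 of 72 genes had a larger and 5 a smaller response in Cvi. WRKY22, a factor of flagellin-triggered immunity, stood at 2.00, 1.31 and 2.51 CPM in Sha in CA, 15.9, 9.05 and 13.7 CPM in Sha in O3, 2.20, 2.32 and 2.92 CPM in Cvi in CA and 112, 132 and 118 CPM in Cvi in O3. The CA levels overlapped and the O3 levels did not (difference 2.92, SE 0.355, FDR 3.19e-12). WRKY75, which is known to promote senescence and hydrogen peroxide build-up, showed the other form. It reached 74.3, 87.4 and 86.3 CPM in Cvi and 81.6, 27.6 and 132 CPM in Sha in O3, with overlap, from 0.126, 0 and 0.174 CPM in Cvi and 3.63, 0.654 and 3.85 CPM in Sha in CA (difference 4.74, SE 0.957, FDR 2.80e-05). WRKY54, a regulator of salicylic acid responses and senescence, rose less in Cvi. Its levels were 11.4, 14.5 and 12.5 CPM in Sha in CA, 122, 110.4 and 218 CPM in Sha in O3, 22, 57 and 46.4 CPM in Cvi in CA and 130.0, 62 and 154 CPM in Cvi in O3, with Cvi above Sha in CA and overlapping it in O3 (difference -2.09, SE 0.542, FDR 0.00468). With a limit of 1.2 on the log2 scale, 3 WRKY genes were larger and 0 smaller, and 2 were smaller without replicate 3 of Sha in CA or without replicate 2 of Cvi in O3.

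In the NAC family, 14 of 99 genes had a larger and 5 a smaller response. NAC061, with the CAMTA core in its promoter, stood at 0.272, 0.509 and 0.550 CPM in Sha in CA, 3.53, 1.87 and 2.49 CPM in Sha in O3, 0.282, 0.309 and 0.436 CPM in Cvi in CA and 23.3, 39.5 and 18.3 CPM in Cvi in O3 (difference 3.83, SE 0.609, FDR 1.27e-07). ANAC087, which takes part in root cap cell death in this species, reached 124, 97.6 and 99.9 CPM in Cvi in O3 against 19.3, 13.6 and 26.2 CPM in Sha in O3, from 1.51 to 2.29 CPM and 2.40 to 3.81 CPM in CA (difference 3.24, SE 0.381, FDR 3.29e-13). In both genes the O3 levels did not overlap. The 5 smaller NAC responses were 3 in each of 5 fits, those without replicate 3 of Sha in CA, replicate 2 of Sha in O3, replicate 2 of Cvi in CA, or replicate 1 or 2 of Cvi in O3. Of 44 ERF and DREB factors, 11 were larger and 1 was smaller. ORA47, an activator of jasmonate synthesis genes, stood at 0.453, 1.02 and 3.33 CPM in Sha in CA, 7.50, 1.02 and 3.73 CPM in Sha in O3, 0.753, 1.24 and 1.92 CPM in Cvi in CA and 88.1, 79.6 and 88.8 CPM in Cvi in O3, a difference of 4.75 (SE 0.890, FDR 2.17e-05). An annotated gene overlaps ORA47 on the other strand, so part of its count may belong there. DREB2C, of a family known for heat and drought responses, was at the floor in Sha in CA. It rose to 40.9, 88.6 and 55.7 CPM in Cvi and to 0.938, 1.21 and 2.45 CPM in Sha, in Sha at least 7.75-fold. In Cvi its CA levels of 0.157, 0.116 and 0.131 CPM lay near the floor (0.114 CPM on average there). Its 459-fold rise in Cvi is therefore imprecise.

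The ZAT zinc finger repressors, early markers of reactive oxygen species, held 4 larger and 1 smaller response among 8 genes. Their median difference was 1.55, and 1.14 with groups at the floor set to 3 counts per library. ZAT12 (RHL41) stood at 2.90, 0.872 and 3.16 CPM in Sha in CA, 270.1, 62.5 and 282 CPM in Sha in O3, 1.16, 0.580 and 2.53 CPM in Cvi in CA and 1001, 1017 and 957 CPM in Cvi in O3. CA levels overlapped and O3 levels did not, and Sha replicate 2 in O3 lay far below the other 2 (difference 2.99, SE 0.806, FDR 0.00651). ZAT7, whose promoter holds 3 matches of the CAMTA core, reached 405, 392 and 378 CPM in Cvi and 41.2, 7.66 and 56.2 CPM in Sha in O3, from 1.00 to 2.05 CPM and 1.24 to 3.06 CPM in CA (difference 4.18, SE 0.754, FDR 7.74e-06). Without replicate 3 of Sha in CA, 2 genes of this list had a larger response.

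Jasmonate genes had larger responses in Cvi at several steps of the pathway. Of 16 synthesis genes, 5 had a larger and 0 a smaller response: LOX3, LOX4, AOC3, OPR3 and OPCL1. The difference was positive in 10 of the 16. In the other direction, 3 were smaller at an unadjusted p under 0.05 in edgeR. Without both Sha libraries numbered 2, 2 were called smaller, and with total counts 1 was. AOC3, the allene oxide cyclase that forms the jasmonate ring, stood at 3.99, 2.54 and 3.95 CPM in Sha in CA, 179.6, 101 and 273 CPM in Sha in O3, 4.17, 4.99 and 5.40 CPM in Cvi in CA and 1142, 1477 and 1249 CPM in Cvi in O3. The O3 levels did not overlap and the difference was 2.34 (SE 0.451, FDR 4.44e-05). OPR3, the reductase of the next step, reached 1146, 1132 and 1060 CPM in Cvi against 331, 244 and 519 CPM in Sha in O3, from 39 to 44 CPM and 46.8 to 61.2 CPM in CA (difference 1.93, SE 0.348, FDR 1.51e-05). With a limit of 1.2 on the log2 scale, edgeR called 0 of the 16, AOC3 and OPR3 included. In all 5 genes the accessions were called different in O3 alone. A list of 9 further jasmonate target genes held 2 larger and 0 smaller responses.

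The JAZ repressors, which hold jasmonate factors in check and are themselves jasmonate-induced, had 6 larger and 0 smaller responses among 13 genes, with a median difference of 1.63. JAZ8 stood at 1.72, 0.945 and 0.824 CPM in Sha in CA, 4.25, 0.905 and 4.30 CPM in Sha in O3, 0.439, 0.425 and 0.566 CPM in Cvi in CA and 14, 16.9 and 18.7 CPM in Cvi in O3 (difference 3.62, SE 0.663, FDR 7.95e-06). JAZ13 (AT3G22275) reached 25.6, 41.9 and 26.5 CPM in Cvi in O3 and 0.361, 0 and 1.17 CPM in Sha in O3, from 1.35, 1.16 and 1.31 CPM and 0.272, 0.436 and 0.447 CPM in CA (difference 4.13, SE 0.740, FDR 4.27e-06). Both genes were at or below 4.30 CPM in every Sha library and at 14 CPM or more in every Cvi library in O3. MYC2, the transcription factor the JAZ proteins bind, was at 245, 194 and 232 CPM in Cvi in O3 and between 37.6 and 88.3 CPM in the other 3 groups (difference 1.42, SE 0.369, FDR 0.0065). MYC2 has an overlapping annotated gene on the other strand (AT1G32630), so its count is uncertain.

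Enzymes that hydroxylate or hydrolyse jasmonates had 5 larger and 0 smaller responses among 10 genes, with a median difference of 2.46. With groups at the floor set to 3 counts per library, it was 2.37 over 9 genes. JOX4 (AT2G38240), a jasmonate oxidase, stood at 3.63, 0.291 and 2.65 CPM in Sha in CA, 16.1, 0.603 and 24.2 CPM in Sha in O3, 0.0314, 0.0387 and 0.261 CPM in Cvi in CA and 109, 217 and 124 CPM in Cvi in O3. All Cvi libraries in O3 lay above all Sha libraries in O3, and Sha replicate 2 lay below the other Sha replicates in both treatments (difference 7.75, SE 1.41, FDR 2.09e-05). JOX3 (JRG21) differed in CA instead. It stood at 11.5, 1.53 and 6.70 CPM in Sha and 0.126, 0.0387 and 0.218 CPM in Cvi in CA, and at 19, 3.32 and 14.3 CPM and 8.94, 13.5 and 5.75 CPM in O3, where the accessions overlapped (difference 5.27, SE 1.04, FDR 3.62e-05). TAT3, a tyrosine aminotransferase used as a jasmonate marker, stood at 42.3, 10.3 and 40 CPM in Sha in CA, 340.3, 78.8 and 478 CPM in Sha in O3, 6.08, 2.36 and 6.36 CPM in Cvi in CA and 857, 764 and 726 CPM in Cvi in O3, with Cvi below Sha in CA and above it in O3 without overlap (difference 4.03, SE 0.821, FDR 0.000125). Without both Sha libraries numbered 2, 6 turnover genes and 7 JAZ genes had a larger response.

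Synthesis of salicylic acid and of N-hydroxypipecolic acid, signals of local and systemic immunity, had 7 larger and 1 smaller response among 17 genes. The median difference was 1.5, and 1.14 with groups at the floor set to 3 counts per library. EDS5, which exports salicylic acid precursors from the chloroplast, stood at 9.34, 10.5 and 9.82 CPM in Sha in CA, 339, 145 and 458 CPM in Sha in O3, 2.85, 2.86 and 3.88 CPM in Cvi in CA and 1021, 849.9 and 949.6 CPM in Cvi in O3. Cvi lay below Sha in CA and above it in O3 without overlap (difference 3.22, SE 0.465, FDR 8.23e-09). FMO1, the enzyme that makes N-hydroxypipecolic acid, differed in CA while its O3 levels overlapped. It stood at 73, 11.2 and 84.7 CPM in Sha and 68.5, 53.3 and 47.6 CPM in Cvi in O3, and at 7.25, 1.67 and 3.78 CPM and 0.126, 0.0773 and 0 CPM in CA, a difference of 5.77 (SE 1.05, FDR 1.62e-06). FMO1 lay around the floor in Cvi in CA (0.114 CPM on average there), so the size of its difference is uncertain. The smaller response was that of DMR6, a hydroxylase that breaks salicylic acid down, with a difference of -1.49. Among 14 genes of salicylic acid perception and its targets, 1 was larger and 1 smaller, the latter WRKY54. The larger was GRX480, a glutaredoxin that links salicylic acid and jasmonate signalling, at 4.99, 1.82 and 4.71 CPM in Sha in CA, 154, 52.8 and 182 CPM in Sha in O3, 1.03, 1.16 and 1.35 CPM in Cvi in CA and 417, 338 and 363 CPM in Cvi in O3 (difference 3.23, SE 0.589, FDR 9.31e-06).

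In ethylene synthesis, 4 of 13 genes had a larger and 0 a smaller response. ACS6, an ACC synthase stabilised by MAP kinases, reached 387, 318 and 359 CPM in Cvi against 167, 156 and 141 CPM in Sha in O3, with 17 to 26.1 CPM and 18.4 to 19.4 CPM in CA (difference 1.08, SE 0.268, FDR 0.00519). ACS2, of the same enzyme family, reached 38.9, 45.7 and 43.5 CPM and 14.6, 3.62 and 25.2 CPM, from 0.0941 to 0.305 CPM and 0.291 to 1.54 CPM (difference 3.90, SE 0.906, FDR 0.00064). Neither pair of O3 levels overlapped. In ethylene signalling, 1 of 12 genes was called, EBF1, an F-box protein that removes the ethylene factor EIN3, at 193 to 223 CPM in Cvi in O3 and 115 to 133 CPM in Sha in O3 (difference 0.97, SE 0.220, FDR 0.00292).

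**Figure D4:**
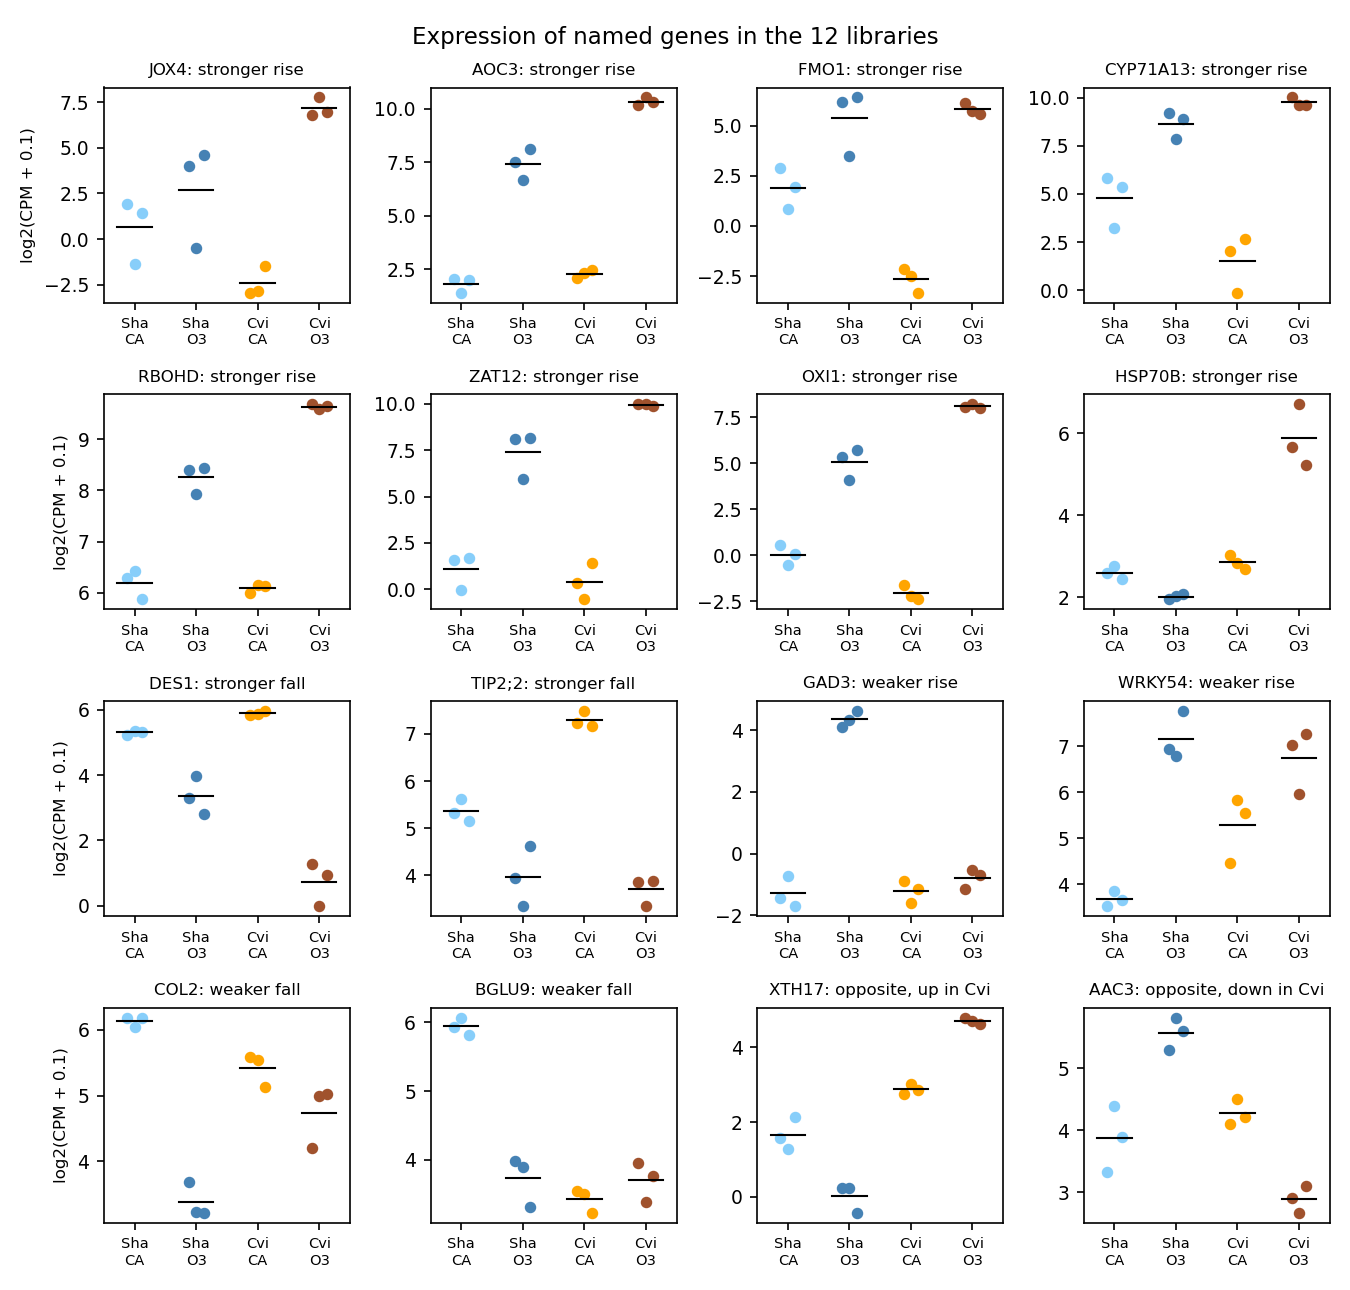
Each panel shows 1 gene in the 12 libraries on a log2(CPM + 0.1) scale, with a point for each library and a bar for the mean of the 3 logged values. In AOC3, RBOHD and ZAT12 the accessions part in O3 and lie close in CA, in FMO1 they part in CA alone, GAD3 rises in Sha alone, and XTH17 and AAC3 move in opposite directions.

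Indole metabolism had the highest share of calls of the 47 lists. Of 12 genes of camalexin and related indole products, 9 had a larger and 0 a smaller response, and the median difference was 3.10. With groups at the floor set to 3 counts per library, the median was 2.63 over 11 genes. CYP79B2, which turns tryptophan into indole-3-acetaldoxime, stood at 65.4, 23.8 and 35.6 CPM in Sha in CA, 83.9, 29.9 and 98.8 CPM in Sha in O3, 13.1, 16.6 and 15.4 CPM in Cvi in CA and 367, 329 and 374 CPM in Cvi in O3. The Cvi libraries lay below those of Sha in CA and above them in O3 (difference 3.8, SE 0.559, FDR 1.75e-08). CYP71A13, the next enzyme towards the phytoalexin camalexin, stood at 57, 9.38 and 40.7 CPM in Sha in CA, 581, 230.4 and 482 CPM in Sha in O3, 3.98, 0.812 and 6.32 CPM in Cvi in CA and 1042, 796 and 781 CPM in Cvi in O3. Here Cvi was called lower in CA and the O3 levels were not called different (difference 4.29, SE 0.885, FDR 0.000169). CYP71A13 has a copy with 90.4% identity over its whole transcript (AT2G30750), with which it may have exchanged reads. Tryptophan synthesis, which supplies this pathway, had 5 larger and 1 smaller response among 11 genes. ASB1, a subunit of anthranilate synthase, reached 296, 305 and 312 CPM in Cvi in O3 against 116, 75.3 and 140.2 CPM in Sha in O3 (CA 20.9 to 21.8 CPM and 33.9 to 37.7 CPM, difference 2.23, SE 0.291, FDR 2.90e-10). Near-identical copies of ASB1 are annotated, 5 in number, so its level may be split among them. Indole-3-glycerol phosphate synthase (AT2G04400) went from 56.7 to 58.9 CPM to 489.8 to 594 CPM in Cvi and from 41.1 to 60.7 CPM to 115 to 246 CPM in Sha (difference 1.5, SE 0.356, FDR 0.0022).

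Glucosinolates, the sulfur-rich defence compounds of the Brassicaceae, were described in a pair of lists by precursor amino acid, whose difference was not tested. Among 15 indolic glucosinolate genes 4 were larger and 1 was smaller. CYP83B1, which commits indole oxime to this route, stood at 251, 179 and 209.6 CPM in Sha in CA, 269, 241 and 306 CPM in Sha in O3, 79.8, 129 and 107 CPM in Cvi in CA and 538, 446 and 545 CPM in Cvi in O3, below Sha in CA and above it in O3 (difference 1.92, SE 0.304, FDR 3.83e-07). IGMT1, a methyltransferase of the same route, was called (difference 1.65, SE 0.524, FDR 0.0365) but lost its call in 8 of the 12 fits without 1 library, and its closest copy (AT1G21130) has 91% identity over 83.9% of its transcript. Cvi lay above Sha in CA (4.86, 6.38 and 9.28 against 0.181, 1.09 and 0.653 CPM). The same held in O3 (446, 399 and 346 against 13.7, 16.4 and 7.20 CPM). Among 18 aliphatic glucosinolate genes, made from methionine, 0 were larger and 3 smaller (5 without replicate 2 of Sha in CA), while all 18 were called lower in O3 in each accession. CYP79F2, the enzyme that commits elongated methionine to this route, fell from 10.8, 11.7 and 9.67 CPM to 1.04, 0.793 and 1.08 CPM in Cvi and from 25.3, 30.5 and 22.7 CPM to 8.37, 11.4 and 7.13 CPM in Sha (difference -1.90, SE 0.337, FDR 5.80e-06). MAM3 (IMS2), which elongates methionine, fell from 127 to 160.0 CPM to 15.1 to 27.7 CPM in Cvi and from 47.8 to 93.4 CPM to 29.2 to 39.8 CPM in Sha (difference -1.55, SE 0.379, FDR 0.00313). The third was MYB28, the main activator of the route, which is named after its values were seen. It stood at 207, 234 and 165 CPM in Sha in CA, 67.3, 86.5 and 64.2 CPM in Sha in O3, 202, 209.8 and 182 CPM in Cvi in CA and 28.9, 23.5 and 23.7 CPM in Cvi in O3, so the CA levels overlapped and the O3 levels did not (difference -1.49, SE 0.270, FDR 2.31e-05).

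In sulfate assimilation, 4 of 17 genes had a larger and 0 a smaller response, and 2 a larger one without replicate 2 of Cvi in O3. The median difference was 0.07, and -0.09 with total counts. APR1, a reductase of activated sulfate, went from 212 to 251 CPM to 375 to 479 CPM in Cvi and from 270.4 to 374 CPM to 220.4 to 287 CPM in Sha (difference 1.05, SE 0.281, FDR 0.011), a call lost without replicate 3 of Cvi in CA or replicate 2 of Cvi in O3. APK2 (AKN2), a kinase that provides activated sulfate for glucosinolates, fell in Sha from 325, 431 and 292 CPM to 190.4, 196 and 232 CPM and was not called in Cvi, with 299, 326 and 268 CPM in CA and 445, 388 and 451 CPM in O3 (difference 1.28, SE 0.272, FDR 0.000522). Glutathione S-transferases, which conjugate reactive compounds to glutathione, had 12 larger and 1 smaller response among 49 genes. GSTU12 stood at 2.00, 1.02 and 2.27 CPM in Sha in CA, 24.3, 11.8 and 27.6 CPM in Sha in O3, 0.0941, 0.0387 and 0.392 CPM in Cvi in CA and 112, 115 and 132 CPM in Cvi in O3, with Cvi lower in CA and higher in O3 (difference 5.89, SE 0.628, FDR 4.21e-19). GSTU3 was at the floor in Cvi in CA and reached 60.2, 73.7 and 72 CPM in Cvi in O3, at least 604-fold higher. In Sha it rose from 5.26, 1.60 and 5.19 CPM to 52.2, 14.9 and 65.1 CPM, 11-fold, and the O3 levels overlapped. Of the 12 larger GST responses, 3 were called different between accessions in O3 alone and 6 in CA alone.

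Heat shock factors and chaperones had 7 larger and 3 smaller responses among 51 genes, and in all 7 the accessions were called different in O3 alone. Without replicate 3 of Sha in O3, 11 were larger, and without replicate 3 of Sha in CA, replicate 2 of Cvi in CA or replicate 1 of Cvi in O3, 1 was smaller. HSP70B, a cytosolic chaperone, rose in Cvi from 8.03, 7.04 and 6.36 CPM to 50.7, 104 and 37.3 CPM. In Sha it stood at 5.89, 6.69 and 5.32 CPM in CA and 3.75, 3.98 and 4.11 CPM in O3, without overlap of the accessions in O3 (difference 3.75, SE 0.447, FDR 8.05e-13). HSP17.4, a small heat shock protein with 2 heat shock elements in its promoter, stood at 0.544, 0.436 and 0.550 CPM in Sha in CA, 4.18, 0.543 and 4.34 CPM in Sha in O3, 0.251, 0.193 and 0.392 CPM in Cvi in CA and 25, 43.9 and 16.1 CPM in Cvi in O3 (difference 4.10, SE 0.878, FDR 0.000201). Its count is uncertain because an annotated antisense gene (AT3G07365) covers 62.6% of its transcript. Among 24 genes of protein folding in the endoplasmic reticulum 4 were larger and 1 was smaller, with a median difference of -0.16, and without replicate 3 of Cvi in CA 2 were larger. BZIP28, a membrane-held factor of the unfolded protein response, reached 181, 254 and 184 CPM in Cvi and 78.3, 57.2 and 88.4 CPM in Sha in O3, from 21.8 to 25.1 CPM and 22.4 to 25.3 CPM in CA (difference 1.46, SE 0.283, FDR 9.53e-05). ERDJ3A (ATERDJ3A), a DNAJ co-chaperone of the same compartment, rose from 2.96 to 4.39 CPM to 61 to 80.2 CPM in Cvi and from 4.43 to 4.62 CPM to 24.7 to 44.8 CPM in Sha (difference 1.28, SE 0.349, FDR 0.0115), a call lost without replicate 3 of Cvi in CA.

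Abscisic acid signalling was called mainly at its phosphatases. Of the 9 clade A type 2C protein phosphatases, which switch the signal off, 4 had a larger and 0 a smaller response. HAI1 stood at 3.35, 3.34 and 4.05 CPM in Sha in CA, 11.5, 6.70 and 9.39 CPM in Sha in O3, 2.20, 3.67 and 1.96 CPM in Cvi in CA and 80.6, 87.6 and 76.8 CPM in Cvi in O3. The O3 levels lay apart without overlap while CA levels overlapped (difference 3.62, SE 0.349, FDR 1.90e-19). PP2CA fell in Sha from 47.9, 82.8 and 58.2 CPM to 29.3, 38.3 and 31.3 CPM and stood at 62.5, 73 and 61.9 CPM in CA and 65, 89.3 and 69.8 CPM in O3 in Cvi (difference 1.12, SE 0.303, FDR 0.012). With total counts as scaling 2 of the 9 were larger, and PP2CA was not among the calls. It was not called by DESeq2 either, or without replicate 1 or 3 of Sha in O3 or replicate 2 of Cvi in O3. Of the 9, 2 were larger without replicate 1 of Sha in O3 or without replicate 2 of Cvi in O3. Synthesis and breakdown of the hormone held 1 larger and 1 smaller response among 10 genes. ABA2, a dehydrogenase of abscisic acid synthesis, fell in Cvi from 32.5, 30.4 and 28.5 CPM to 14.4, 12.2 and 13.8 CPM, with 16, 22.1 and 18.1 CPM in CA and 19.5, 22.6 and 20.1 CPM in O3 in Sha (difference -1.32, SE 0.224, FDR 9.12e-06). CYP707A3, which breaks abscisic acid down, rose from 0.941 to 2.35 CPM to 20.9 to 26.9 CPM in Cvi and from 1.24 to 3.08 CPM to 5.02 to 9.89 CPM in Sha (difference 1.93, SE 0.548, FDR 0.0128). This call was lost without replicate 1 of Sha in CA or replicate 1 or 2 of Cvi in CA. Of 10 PYR/PYL receptors 1 was larger, PYL5 (difference 1.2, SE 0.338, FDR 0.0164), a call lost with total counts, after thinning, by DESeq2 and without replicate 3 of Sha in CA, replicate 1 of Sha in O3 or replicate 1 or 2 of Cvi in CA. Of 9 abscisic acid target genes, 0 were called in either direction by edgeR, by its quasi-likelihood test or by DESeq2, while 2 were lower in Cvi and 0 higher at an unadjusted p under 0.05. With total counts, or without both Sha libraries numbered 2, 1 was called smaller. The median difference of the targets was -0.04, and 0.03 with the size factors of DESeq2.

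Guard cell and water transport genes were examined next. Of 22 guard cell genes, 1 had a larger and 2 a smaller response (4.55% and 9.09%, against 6.33% and 2.6% of all genes). KAT2, an inward potassium channel, went from 9.54, 8.00 and 6.62 CPM to 35.6, 30.5 and 21.4 CPM in Cvi and from 14.5, 12.1 and 12.1 CPM to 21.4, 17 and 15.5 CPM in Sha (difference 1.37, SE 0.313, FDR 0.00131). ALMT12, an anion channel of stomatal closure, fell from 14.2 to 16.9 CPM to 3.71 to 4.67 CPM in Cvi and from 9.69 to 12.4 CPM to 4.00 to 9.11 CPM in Sha (difference -1.22, SE 0.366, FDR 0.0262), but lost its call in 8 of the 12 fits without 1 library. The 5 guard cell markers summed to between 77.7 and 92.5 CPM in Sha in CA and between 62 and 83.3 CPM in Sha in O3. In Cvi the sums were 77.9 to 90.3 CPM in CA and 53.7 to 62.3 CPM in O3. In whole rosettes fewer cells of a type and less RNA per cell cannot be told apart. Of 29 aquaporins, which let water across membranes, 0 were larger and 3 smaller (10.3%). TIP2;2 fell from 149.8, 179.8 and 143 CPM to 14.4, 10.2 and 14.7 CPM in Cvi and from 40, 49 and 35.5 CPM to 15.2, 10.1 and 24.5 CPM in Sha, so the accessions met in O3 from unequal CA levels (difference -2.27, SE 0.390, FDR 3.10e-06). PIP1;1 (PIP1A) had the same form, from 363 to 500.4 CPM to 64.9 to 76.8 CPM in Cvi and from 219 to 273 CPM to 74 to 91.7 CPM in Sha (difference -1.08, SE 0.259, FDR 0.00363).

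Genes of redox balance and cell death held a few calls each. Among 31 antioxidant enzymes 3 were larger and 0 smaller, with a median difference of 0.10 that became -0.10 with total counts. VTC5, an enzyme of ascorbate synthesis, reached 148, 146 and 144 CPM in Cvi and 76.2, 42.2 and 87.8 CPM in Sha in O3, from 25.4 to 33.8 CPM and 39.3 to 47.7 CPM in CA (difference 1.57, SE 0.333, FDR 0.000398). AT3G09940, a monodehydroascorbate reductase that recycles ascorbate, rose to 211 to 282 CPM in Cvi and 56.3 to 105 CPM in Sha, from at most 5.62 CPM in CA (MDHAR, difference 2.21, SE 0.536, FDR 0.00188). Among 19 genes of alternative respiration and the RCD1 and SRO family 4 were larger and 1 was smaller. SRO5 stood at 0.907, 1.45 and 0.653 CPM in Sha in CA, 7.79, 9.47 and 5.92 CPM in Sha in O3, 0.188, 0.232 and 0.174 CPM in Cvi in CA and 35, 44.3 and 34.5 CPM in Cvi in O3, below Sha in CA and above it in O3 (difference 4.53, SE 0.527, FDR 6.13e-16). AOX1D, an alternative oxidase of mitochondria, reached 28.3, 8.44 and 39.3 CPM in Sha and 19.5, 19.5 and 17.4 CPM in Cvi in O3, with overlap, from 3.17, 1.16 and 1.48 CPM and 0.282, 0.0387 and 0 CPM in CA (difference 3.53, SE 0.884, FDR 0.00126). Of 11 cell death regulators, 5 were larger and 1 was smaller, with 3 larger without replicate 3 of Sha in CA. BAP1, an inhibitor of cell death that works with the copine BON1, stood at 2.27, 0.799 and 1.65 CPM in Sha in CA, 21.2, 4.46 and 19.2 CPM in Sha in O3, 0.157, 0.387 and 0.784 CPM in Cvi in CA and 87.8, 86.3 and 89.8 CPM in Cvi in O3 (difference 4.40, SE 0.764, FDR 2.26e-06). NUDT6, a Nudix hydrolase of immune signalling, rose from 9.88 to 12.1 CPM to 156 to 312 CPM in Cvi and from 15.4 to 22.5 CPM to 54.6 to 77.5 CPM in Sha (difference 2.59, SE 0.355, FDR 1.60e-09).

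In the general phenylpropanoid pathway, the source of lignin and many phenolics, 4 of 17 genes were larger and 0 smaller. C4H, its cytochrome P450 step, reached 765, 755 and 1010 CPM in Cvi and 301, 127 and 416 CPM in Sha in O3, from 104 to 125 CPM and 119 to 126 CPM in CA (difference 1.70, SE 0.453, FDR 0.00745). Sha replicate 2 stayed near its CA level. PAL4 was at 12.6 to 16.1 CPM in Cvi in O3 and 1.27 to 3.96 CPM in Sha in O3 (difference 1.85, SE 0.429, FDR 0.00116). Without both Sha libraries numbered 2, 7 of the 17 genes were larger. There were 7 without replicate 2 of Sha in O3 alone and 9 without replicate 3 of Sha in O3. Of 12 flavonoid genes downstream of this pathway, 0 were called by edgeR, by its quasi-likelihood test or by DESeq2, and 0 had an unadjusted p under 0.05.

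Photosystem genes fell in both accessions and were rarely called for a difference. Of 46 photosystem and antenna genes, all 46 were called lower in O3 in each accession and 1 was called for the difference, Lhca5, a minor antenna protein of photosystem I. It fell from 133, 132 and 124 CPM to 52.1, 27.6 and 39.4 CPM in Sha and from 183, 181 and 167 CPM to 132, 102 and 105 CPM in Cvi (difference 1.06, SE 0.301, FDR 0.0183), a call lost without replicate 3 of Cvi in CA or replicate 1 of Cvi in O3. Of 27 Calvin cycle and photorespiration genes, 27 were called lower in O3 in Sha and 26 in Cvi, and of 21 chlorophyll synthesis genes 13 in each. In both lists 0 genes were called for the difference by edgeR, by its quasi-likelihood test or by DESeq2, and in each 1 gene had an unadjusted p under 0.05. With 1 library left out, up to 2 genes of the Calvin cycle list were called larger and up to 1 chlorophyll gene smaller. The median differences of these 3 lists were 0.27, 0.35 and 0.16, against 0.03 over all genes, and 42 of the 46 and 25 of the 27 had a positive sign. With total counts as scaling, where the median over all genes was -0.14, they were 0.11, 0.19 and 0.01. The 39 proteasome genes held 1 call, for a smaller response (PAD2, difference -0.72, SE 0.200, FDR 0.0352), which was lost in 8 of the 12 fits without 1 library. The 12 autophagy genes held 1, for a larger response (ATG8H, difference 1.43, SE 0.284, FDR 0.000133).

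**Figure D5:**
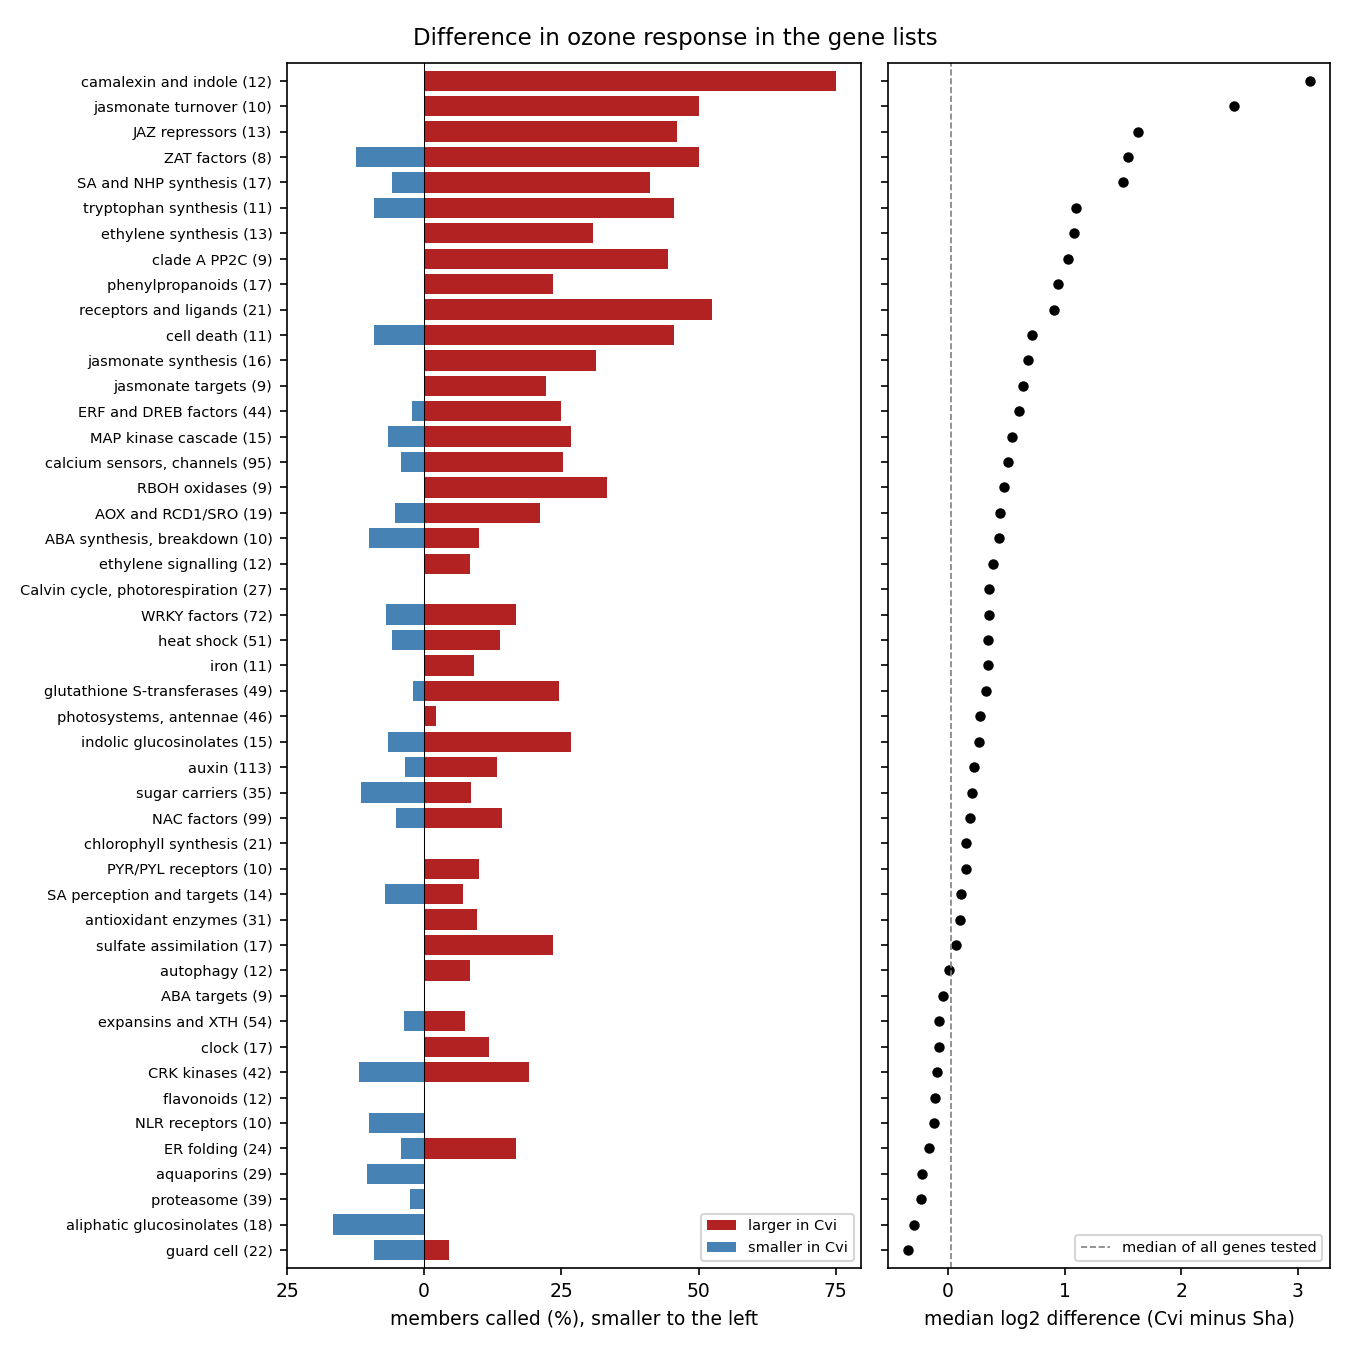
For each of 47 gene lists (genes tested in brackets), bars give the share of members called for a larger (right) or smaller (left) response in Cvi, and points give the median log2 difference, with the dashed line at the median of all genes tested (0.03). Camalexin and indole metabolism stands at the top with 9 of 12 members called larger and a median of 3.10, and the aliphatic glucosinolates and the guard cell list lie at the bottom.

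Read against the background, the lists differ. Among the 15313 genes that averaged 5 CPM or more, which list members mostly reach, 9.14% had a larger and 3.57% a smaller response. The shares of larger responses in indole metabolism (75%), receptors (52.4%), jasmonate turnover (50%), JAZ repressors (46.2%) and salicylic acid synthesis (41.2%) lay above this. Those of antioxidant enzymes (9.68%), PYR/PYL receptors (10%) and autophagy (8.33%) lay near it. The same held for expansins and XTH (7.41%), iron (9.09%), sugar carriers (8.57%), the clock (11.8%) and ethylene signalling (8.33%). It also held for salicylic acid perception and targets (7.14%) and abscisic acid synthesis and breakdown (10%). NAC factors (14.1%), heat shock genes (13.7%) and auxin genes (13.3%) lay less far above it than the lists named first. Other lists above it included cell death and tryptophan synthesis (45.5% each), clade A phosphatases (44.4%), RBOH (33.3%) and ethylene synthesis (30.8%). MAP kinases (26.7%), calcium genes (25.3%), ERF and DREB (25%), GST (24.5%), sulfate assimilation (23.5%), CRK (19%) and WRKY (16.7%) followed. Smaller responses were 11.9% of CRK and 6.94% of WRKY genes. List shares among genes raised by O3 were not computed. With a limit of 1.2 on the log2 scale, edgeR called no larger response in 15 of the 39 lists that held any, 7 of them with 3 or more at the main limit: jasmonate synthesis, folding in the endoplasmic reticulum, antioxidant enzymes, indolic glucosinolates, sulfate assimilation, phenylpropanoids and sugar carriers. Of 25 lists with smaller responses, 20 then held none. In 8 lists no gene was called larger and in 22 none smaller. In these the quasi-likelihood test of edgeR and DESeq2 also called 0 genes. At an unadjusted p under 0.05 in the main edgeR test they held at most 1 larger and at most 3 smaller. Other fits did call some. Without both Sha libraries numbered 2, jasmonate synthesis, jasmonate targets and antioxidant enzymes held 2 smaller responses each. With total counts these 3 lists, sulfate assimilation, abscisic acid targets and the clock held 1 smaller each. The Calvin cycle list held up to 2 larger with 1 library left out. The lists were chosen with earlier results of these data known, so these shares describe them and no test was run on them. Medians near 0 changed sign with total counts for 3 further lists: salicylic acid perception and targets (0.11 to -0.05), PYR/PYL receptors (0.16 to -0.05) and autophagy (0.01 to -0.17).

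The naming rule also took CYP76C5, a cytochrome P450 of a family known for terpene metabolism. It stood at 0.272, 0 and 0.240 CPM in Sha in CA, 1.3, 0.543 and 1.51 CPM in Sha in O3, 0.220, 0.0773 and 0.523 CPM in Cvi in CA and 135, 87.4 and 108 CPM in Cvi in O3. The O3 levels lay far apart while the CA levels overlapped (difference 6.07, SE 0.724, FDR 3.32e-10), and a copy with 92.8% identity over 61.2% of its transcript (AT1G33720) may have exchanged reads with it. Several further genes named here overlap an annotated gene on the other strand: JAZ13, EDS5, SRO5, ABA2, COL2, APR1, AT2G04400, CYP71A13, Lhca5, PAD2, BGLU9 and ERDJ3A. FER4 overlaps AT2G40290 on the same strand. The use of strand in counting was not stated, so the counts of these genes are uncertain.

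Genes of the stronger fall class, which need not fall in Sha, included carriers and amino acid enzymes. DES1, an L-cysteine desulfhydrase that releases hydrogen sulfide, fell from 56.7, 58.9 and 62.5 CPM to 2.33, 0.892 and 1.81 CPM in Cvi and from 37.5, 41 and 39.9 CPM to 9.74, 15.6 and 6.98 CPM in Sha. The accessions were apart in O3 without overlap (difference -3.26, SE 0.408, FDR 1.02e-11). PYD4, an aminotransferase of pyrimidine breakdown, fell from 7.21, 8.74 and 7.28 CPM to 0.0993, 0.248 and 0.0697 CPM in Cvi and from 17.4, 22.1 and 19.5 CPM to 11.6, 12.1 and 5.73 CPM in Sha (difference -4.80, SE 0.611, FDR 4.38e-16). SWEET12, which exports sucrose towards the phloem, fell in Cvi from 4.39, 24.8 and 9.59 CPM to 1.29, 1.64 and 5.57 CPM. In Sha it stood at 10.9, 7.70 and 6.66 CPM in CA and 20.9, 21.4 and 18.3 CPM in O3, a change that was not called (difference -3.44, SE 0.800, FDR 0.000996).

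Of 35 sugar carriers, 3 had a larger and 4 a smaller response, and all 4 of the latter were SWEET exporters of 1 clade: SWEET11, SWEET12, SWEET13 and SWEET15 (SAG29). SWEET11 and SWEET13 are named after their values were seen. SWEET11 stood at 107, 90.8 and 77.3 CPM in Sha in CA, 98.2, 124 and 86 CPM in Sha in O3, 77.9, 142 and 109 CPM in Cvi in CA and 22.3, 17.4 and 37.6 CPM in Cvi in O3, so it fell in Cvi alone (difference -2.25, SE 0.411, FDR 1.46e-05). SWEET13 stood at 2.99, 13.9 and 1.41 CPM in Sha in CA, 0.649, 6.94 and 0.603 CPM in Sha in O3, 3.86, 12 and 3.48 CPM in Cvi in CA and 0.248, 0.0991 and 0 CPM in Cvi in O3, with the libraries of each group far apart (difference -4.63, SE 1.5, FDR 0.0319). SAG29 fell from 16.8, 13.8 and 23.8 CPM to 0.347, 0.595 and 0.313 CPM in Cvi, and in Sha in O3 a single library carried the level (9.81, 0.0603 and 0.943 CPM, against 3.08, 1.31 and 3.71 CPM in CA), with a difference of -5.83 (SE 1.33, FDR 0.0011).

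Weaker rises in Cvi took several forms. GAD3, a glutamate decarboxylase, rose in Sha from 0.272, 0.509 and 0.206 CPM to 17.2, 20 and 24.7 CPM and stood at 0.439, 0.232 and 0.348 CPM in CA and 0.347, 0.595 and 0.522 CPM in O3 in Cvi (difference -5.56, SE 0.607, FDR 6.90e-17). A copy with 90.7% identity over 86.1% of its transcript (AT2G02010) could have taken reads from it. DOGT1, a glucosyltransferase of brassinosteroids and the mould toxin deoxynivalenol, met in O3: it stood at 37.5, 37.9 and 25.8 CPM in Sha and 43, 15.3 and 40.6 CPM in Cvi in O3. Cvi held 12.4, 26.6 and 26.4 CPM in CA already, where Sha held 0.453, 0 and 0 CPM (difference -7.67, SE 0.864, FDR 1.17e-18), and a copy (AT2G36790) has 90.9% identity over 85.4% of its transcript. The floor averaged 0.198 CPM in Sha in CA, so the size of the DOGT1 difference is uncertain. BON1, a copine that restrains cell death, stood at 0, 0.363 and 0.172 CPM in Sha in CA, 96.3, 71.7 and 74.2 CPM in Sha in O3, 7.12, 10.1 and 6.75 CPM in Cvi in CA and 198, 240.0 and 174 CPM in Cvi in O3 (difference -4.05, SE 0.554, FDR 2.25e-14). The annotated gene AT5G61910 covers 96.3% of its transcript on the same strand, so counts of the 2 cannot be separated. NTM1 (ANAC068), a membrane-held NAC factor, rose to 31.4, 46.4 and 24.9 CPM in Sha and 11.4, 13.8 and 16.1 CPM in Cvi, from 3.17 to 6.11 CPM and 3.66 to 4.99 CPM in CA (difference -1.20, SE 0.384, FDR 0.0408). It lost its call in 8 of the 12 fits without 1 library, and a copy with 96% identity (AT4G01520) covers 52.7% of its transcript.

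Weaker falls in Cvi were fewer. COL2, of the CONSTANS-like family, stood at 72.6, 66.1 and 72.2 CPM in Sha in CA, 12.8, 9.29 and 9.20 CPM in Sha in O3, 48, 46.4 and 35 CPM in Cvi in CA and 18.4, 31.9 and 32.3 CPM in Cvi in O3. Sha was higher in CA and lower in O3 (difference 2.11, SE 0.321, FDR 9.49e-08). SCPL13, a serine carboxypeptidase-like protein, fell in Sha from 44.2, 33.6 and 37.9 CPM to 11.1, 7.30 and 7.01 CPM and stood at 30.2, 46.7 and 31.3 CPM in CA and 24.8, 39.1 and 48.1 CPM in O3 in Cvi (difference 2.24, SE 0.380, FDR 2.26e-06). NIG1, a calcium-binding basic helix-loop-helix factor of salt stress, fell from 14.6, 14.3 and 14.4 CPM to 1.15, 0.724 and 0.377 CPM in Sha and from 13.8, 17.7 and 9.45 CPM to 2.63, 3.27 and 2.26 CPM in Cvi (difference 2.02, SE 0.442, FDR 0.000366). BGLU9, a beta-glucosidase, was already low in Cvi in CA. It stood at 61.1, 66.9 and 56 CPM in Sha in CA, 15.8, 14.8 and 9.84 CPM in Sha in O3, 11.6, 11.2 and 9.28 CPM in Cvi in CA and 15.4, 10.3 and 13.6 CPM in Cvi in O3 (difference 2.48, SE 0.294, FDR 1.27e-12), and a copy with 90% identity (AT4G27830) may share its reads. FER4, a ferritin that stores iron, fell in Sha from 50.1 to 64.1 CPM to 21 to 29.1 CPM and stood at 42.8 to 56 CPM in CA and 38.8 to 54.8 CPM in O3 in Cvi (difference 1.01, SE 0.271, FDR 0.0123). It was the 1 called gene of 11 in the iron list, and its call was lost with total counts and without replicate 3 of Sha in CA, replicate 1 of Sha in O3, replicate 2 of Cvi in CA or replicate 1 of Cvi in O3.

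Opposite responses were called in 64 genes. XTH17, an enzyme that remodels xyloglucan in the cell wall, fell in Sha from 2.90, 2.33 and 4.26 CPM to 1.08, 1.09 and 0.641 CPM and rose in Cvi from 6.59, 7.96 and 7.19 CPM to 27.7, 25.8 and 24.4 CPM. Cvi was above Sha in both treatments without overlap (difference 3.71, SE 0.363, FDR 2.98e-20). A copy with 90.7% identity over its whole transcript (AT4G30280) may have exchanged reads with it. OCT3, an organic cation carrier, fell in Sha from 6.89, 6.83 and 6.87 CPM to 1.59, 1.69 and 2.07 CPM and rose in Cvi from 8.53, 9.09 and 10.2 CPM to 13.8, 18.9 and 19.8 CPM (difference 2.83, SE 0.299, FDR 1.49e-16). SKS9, a relative of the cell wall protein SKU5, fell from 28.6, 31.9 and 28.8 CPM to 20.3, 16.2 and 11.2 CPM in Sha and rose from 20.5, 22.7 and 20.6 CPM to 69.2, 92.5 and 62.2 CPM in Cvi (difference 2.72, SE 0.301, FDR 1.66e-14). IAA19, an auxin-induced repressor of auxin responses, fell from 6.62, 5.01 and 9.55 CPM to 4.40, 3.14 and 3.09 CPM in Sha and rose from 6.71, 9.74 and 9.32 CPM to 19.7, 32.9 and 19.1 CPM in Cvi (difference 2.50, SE 0.415, FDR 1.02e-06).

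In the other direction, AAC3, an ADP/ATP carrier of mitochondria, rose in Sha from 9.97, 20.9 and 14.7 CPM to 39.1, 56.3 and 48.2 CPM and fell in Cvi from 17.1, 22.7 and 18.4 CPM to 7.40, 6.24 and 8.46 CPM. The O3 levels did not overlap (difference -3.04, SE 0.350, FDR 1.54e-13). NAC089, a membrane-held NAC factor of stress in the endoplasmic reticulum, rose in Sha from 10.8, 18.1 and 12.3 CPM to 20.8, 29.4 and 21.4 CPM and fell in Cvi from 6.62, 7.35 and 7.45 CPM to 3.48, 3.22 and 5.15 CPM (difference -1.64, SE 0.344, FDR 0.000328). ZIP5, a zinc transporter, rose in Sha from 7.44, 4.58 and 3.61 CPM to 15.1, 10.9 and 10.3 CPM. In Cvi it stood at 4.49, 4.99 and 19.7 CPM in CA, where replicate 3 was far above the others, and at 4.62, 4.66 and 3.62 CPM in O3 (difference -2.40, SE 0.677, FDR 0.0109). Without that library the log2 response in Cvi was -0.14 and not called, and ZIP5 was called in opposite directions in 3 of the 12 fits without 1 library. NAC089 was in 9, IAA19 in 10 and AAC3, XTH17, OCT3 and SKS9 in 12.

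Growth-related lists were mixed. Of 113 auxin genes, 15 had a larger and 4 a smaller response, with a median difference of 0.22 that became -0.01 when groups at the floor were set to 3 counts per library. Of the auxin genes 2 were smaller without replicate 1 or 2 of Sha in CA, any 1 replicate of Cvi in CA, or replicate 3 of Cvi in O3. GH3.3, an enzyme that conjugates auxin, stood at 7.99 to 16.9 CPM in Cvi in O3 and 1.99 to 5.70 CPM in Sha in O3 (difference 1.94, SE 0.536, FDR 0.00937), a call lost without replicate 2 of Cvi in O3. Of 54 expansin and XTH genes 4 were larger and 2 smaller (7.41% and 3.70%), near the 6.33% and 2.6% of all genes tested. Without replicate 3 of Sha in CA, replicate 1 of Cvi in CA or replicate 1 of Cvi in O3, 2 were larger. Among them TCH4, a touch-induced xyloglucan enzyme, reached 433, 376 and 415 CPM in Cvi and 73, 9.29 and 40.3 CPM in Sha in O3 (difference 2.44, SE 0.754, FDR 0.0244), a call lost in 6 of the 12 fits without 1 library. Of 17 clock genes 2 were larger, and TOC1, an evening gene of the clock, had a difference of 1.1 (SE 0.333, FDR 0.0305), lost in 7 of the 12 fits.

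Lastly, 3 further genes that the study names were compared, and 0 of them were called for the difference by edgeR, by its quasi-likelihood test or by DESeq2, and 0 had an unadjusted p under 0.05. WRKY38 rose in Sha from 1.54, 0.727 and 1.99 CPM to 12.1, 8.80 and 14.1 CPM and in Cvi from 0.220, 0.0387 and 0.174 CPM to 0.546, 1.19 and 1.43 CPM. Cvi was lower in both treatments without overlap, and the difference of the log2 responses was -0.19 (SE 0.695, FDR 1). NAC004 (ANAC004) rose in Sha from 2.45, 2.11 and 2.23 CPM to 14.9, 10.5 and 37.8 CPM and in Cvi from 0.439, 0.928 and 0.915 CPM to 4.22, 3.91 and 7.17 CPM, again with Cvi lower in both treatments (difference -0.47, SE 0.644, FDR 0.88). MPK12, a guard cell MAP kinase, stood at 8.52, 14.3 and 13.2 CPM in Sha in CA, 12.5, 11.9 and 7.73 CPM in Sha in O3, 16.8, 16.9 and 14.4 CPM in Cvi in CA and 13.7, 16.9 and 16.4 CPM in Cvi in O3 (difference 0.15, SE 0.318, FDR 0.998). The sign of all 3 differences changed in at least 1 fit that left out a library.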

How the data were processed

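Transcripts were measured by single-end RNA sequencing of 12 libraries, 3 for each of 4 groups. To make the deposited estimated counts, the authors trimmed reads with Trimmomatic 0.33, quantified them with kallisto on the AtRTD2 transcript reference, and took the mean of repeated estimates from redrawn reads. How transcripts were summed to loci, and whether strand was used, is not given in the sources used here. Of the deposited estimated counts, 69.42% were not whole and were rounded. A further 6 columns, which no library label here matches, were not used.

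Of 34212 loci, 28549 with a count were tested and 5663 had none. Scaling used TMM factors, and the fit was a group-means model over the 12 libraries in edgeR 4.0.16 (glmFit, then glmTreat against a 1.2-fold change, Benjamini-Hochberg FDR of at most 0.05) in R 4.3.3 with limma 3.58.1. Errors are SEs of the fit over 3 replicates a group, which the labels call biological. Genes were named by a rule: the 4 widest differences in each rise and fall class and the 3 widest in each opposite direction (protein-coding, with a symbol, mean of at least 5 CPM, no group at the floor, called in each of 12 fits without 1 library), up to 2 called members of each of 47 lists with a mean of at least 5 CPM, and genes taken up by the study. The members and lists were chosen with earlier results of these data known. A group is at the floor where each library has at most 3 counts, and folds against it use 3 counts per library and cover counting error only. A group with 1 library above 3 counts is not at the floor by this rule. Differences of genes near 0 CPM in CA, such as JOX4 and WRKY75, may therefore rest on few counts.

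Loci were matched to RefSeq TAIR10.1 (33437 matched), from which promoters of 300 bases were read. Copies were sought with blastn 2.17.0 (identity of 90% or more, 50% or more of the transcript covered). Tables were handled in Python 3.11.15 (pandas 2.3.3, numpy 2.4.6). The fit was tested on simulated data of 28549 genes with this design: of 100 genes with a 2-fold difference 29 were recovered, of 100 with a 4-fold difference 98, and 24 of 28349 unchanged genes were called. The changed genes were drawn from those with a mean of at least 5 CPM and were raised or lowered in Cvi in O3 alone. All other genes had the same mean share in each group, without an O3 or accession effect. The simulation therefore gives no rates for genes near 0 CPM in CA. Alternatives were other limits, tests (quasi-likelihood, DESeq2 1.42.0), scalings, a low-count filter, thinning to the smallest library, replicate blocks and left-out libraries. Leaving out both Sha libraries numbered 2, and counting list members with each library left out, was chosen after seeing the data.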

Additional observations from a re-analysis of the deposited data

Results flagged for a closer look

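All results listed here stood out for the same reason: the test of the difference itself found unequal O3 responses in the 2 accessions. A larger response in Cvi was called in 1806 genes and a smaller one in 742. Responses in opposite directions were called in 39 genes that rose in Cvi and fell in Sha, and in 25 that fell in Cvi and rose in Sha. Among the former, the difference of the log2 responses was 3.71 in XTH17, 2.83 in OCT3, 2.72 in SKS9 (sks9) and 2.50 in IAA19. Among the latter it was -3.04 in AAC3, -2.40 in ZIP5 and -1.64 in NAC089. The fall of ZIP5 in Cvi was not called without replicate 3 of Cvi in CA (log2 response -0.14), and ZIP5 was called in opposite directions in 3 of 12 fits without 1 library.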

How the results depend on the processing

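With a limit of 1.2 on the log2 scale, a reading of the study's printed threshold, 464 genes were larger and 66 smaller, with 436 stronger rises, 33 stronger falls, 25 weaker rises, 12 weaker falls and 3 and 0 opposite genes (up and down in Cvi). DESeq2 gave 323 smaller, 208 stronger falls, 100 weaker rises, 58 weaker falls and 16 and 5 opposite genes. Total counts gave 1217 smaller, 876 stronger falls, 266 weaker rises and 41 opposite genes down in Cvi. The quasi-likelihood test gave 1387 larger and 489 smaller genes, 343 stronger falls and 58 weaker falls. Thinned to the smallest library, 24 opposite genes were up in Cvi, and with no minimum change 52 were down in Cvi. The counts of larger and smaller responses were 1977 and 590 with RLE factors, 1677 and 933 with upper-quartile factors, 1912 and 771 with the low-count filter, 1540 and 574 after thinning, and 2120 and 1063 with no minimum change.

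Over the fits with left-out libraries, larger responses ran from 938 to 1872 and smaller ones from 300 to 1096, stronger rises from 892 to 1725, stronger falls from 192 to 764, weaker rises from 79 to 270, weaker falls from 32 to 102, and opposite genes from 10 to 43 (up in Cvi) and from 7 to 35 (down in Cvi). The single libraries that moved a class by over 1.5 times were replicate 2 of Cvi in CA (353 stronger falls), replicate 2 of Cvi in O3 (338) and replicate 3 of Cvi in O3 (14 opposite genes down in Cvi).

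Replicate numbers were checked as pairs. Deviations from the group means correlated at 0.358, 0.575 and 0.387 between same-numbered CA and O3 libraries of Sha, and at 0.123, -0.091 and -0.036 in Cvi. Between the accessions they correlated at 0.235, 0.391 and 0.203 in CA and at 0.026, -0.144 and -0.00839 in O3. Libraries of unlike number correlated on average at -0.201 within Sha (same number 0.440) and at -0.136 between the CA groups (same number 0.276). Within Cvi these means were 0.0003 and -0.0015, and between the O3 groups 0.020 and -0.042. Since not all pairs exceeded 0.1, the numbers were not taken to pair the samples, though all pairs within Sha and all between the CA groups did. The main fit thus has no term for the pairing seen in those groups. With a replicate block, 2043 genes were larger and 930 smaller. With a replicate block per accession, 2418 were larger and 1356 smaller, with 976 stronger falls, 292 weaker rises, 170 weaker falls and 66 and 53 opposite genes. Of the 98 named genes, 98 kept their direction and side of the threshold under each block.

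Of 1078 values of the named genes under the other settings, 1008 kept direction and call, 69 lost the call and 1 changed sign (MPK12, -0.03 with total counts). Of the 69 losses, 40 came from the limit of 1.2 on the log2 scale, under which 58 of the 98 genes kept direction and call. Of 1176 values with 1 library left out, 1101 kept both, 70 lost the call and 5 changed sign. The differences that changed sign were not called: with left-out libraries NAC004 ran from -0.89 to 0.25, MPK12 from -0.26 to 0.58 and WRKY38 from -0.66 to 0.59. The median of the auxin list became -0.01 with groups at the floor set to 3 counts per library. With the 250-base window, the CAMTA core was in 15.2% of stronger rises and 7.13% of all promoters, and the W-box in 40.2% and 28.4%. The cause of these changes was not tested. At these depths and this number of replicates, 29 of 100 simulated 2-fold differences were recovered, so a gene without a call may still differ.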
